A study of Mus musculus with 11 samples.

Results

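Slc38a5-high venous-side capillary endothelial cells (ECs) of the mouse brain cortex were picked from single-cell RNA-seq data by a fixed rule on unique molecular identifiers (UMIs), each of which marks 1 counted transcript molecule. A cell was kept with over 500 and under 6000 detected genes and under 25% of its UMIs from mitochondrial genes. It passed as an EC with at least 3 UMIs of Cldn5, Flt1 and Pecam1 together, at most 2 of the mural genes Rgs5 and Vtn, and at most 2 of the immune genes C1qa, C1qb and Ptprc. Slc38a5-high ECs then had at least 3 UMIs of Slc38a5, none of the arterial genes Bmx, Gkn3, Sema3g and Gja5, at most 1 of the adhesion molecules Vcam1 and Icam1, and at most 1 of the cycling genes Top2a, Mki67 and Birc5. The rule found 2530 such cells, which were 12.8% of the 19835 ECs among 50625 kept cells of 11 libraries.

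All animals were C57BL/6 mice, and the study's methods describe the mice as female unless stated otherwise. The libraries were Juvenile (postnatal day 10, 4 libraries, 6 mice pooled), Adult (7 to 11 weeks, untreated, 3 libraries, 6 mice pooled), Aged (18 months, untreated, 2 libraries, 3 mice pooled) and EAE (7 to 11 weeks, 2 libraries, 3 mice pooled). EAE, experimental autoimmune encephalomyelitis, is an inflammatory model of multiple sclerosis, here induced with the myelin peptide MOG35–55 in Complete Freund's Adjuvant plus pertussis toxin and sampled at the peak of disease. Every library was made from dissociated, myelin-depleted cortex with the 10x 3′ kit, and because animals were pooled the spread between libraries of 1 group may be largely technical. ECs of Juvenile 1 and Juvenile 2 differed by no more than sampling noise, so their UMIs were summed and counted as 1 sample, which left 10 units. Juvenile 3 and 4 and Adult 2 and 3 were also close, with mean squared standardized differences of 1.41 and 1.55, so the units may not be independent. With both pairs summed too, the called genes went from 2871 to 1830 for Juvenile and from 266 to 92 for Aged against Adult.

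Brain capillaries form a continuum from an arterial to a venous end, and blood leaves the bed through venules and veins. Slc38a5 encodes a sodium-coupled transporter of glutamine and other neutral amino acids, Tfrc the transferrin receptor through which brain ECs take up iron, and Car4 a carbonic anhydrase anchored on the luminal membrane. Brain ECs are joined by tight junctions, so amino acids, glucose, lactate, thyroid hormone and metals reach the brain largely through solute carriers of this kind. On the genome build mm10, Slc38a5 lies at chrX:8271133-8280179, Tfrc at chr16:32608920-32632794 and Car4 at chr11:84957786-84966044, each as the span of the gene in the GENCODE annotation of that assembly.

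The libraries held 15755504 to 34326349 UMIs each, and the Slc38a5-high cells of a library held 190165 to 4387930 UMIs. They numbered 215, 192, 633 and 581 in Juvenile 1 to 4, 58, 208 and 223 in Adult 1 to 3, 144 and 160 in Aged 1 and 2, and 60 and 56 in EAE 1 and 2. Their median depth was 5354 to 7232 UMIs per cell in the juvenile libraries, 3334 to 3585 in the adult, 2662 and 2882 in the aged and 2922 and 2982 in the EAE libraries. Adult 1 stood apart from the other adult libraries, with a mean squared standardized difference of 9.40 and 9.37 against 1.55 between Adult 2 and Adult 3, and results that turn on it are given without it. The juvenile libraries also split, at 5.46 to 6.71 between Juvenile 1 or 2 and Juvenile 3 or 4. Scrublet called 22 of the 2530 cells doublets, and in Aged 2 it called only 0.0421% of all kept cells, so it cannot be said to have worked there. Any pair of libraries shared at most 125 cell barcodes.

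Because the rule needs 3 UMIs, it favours deep cells and cells rich in Slc38a5. The median Slc38a5 count of the chosen cells was 8 or 9 UMIs in juvenile libraries, 4 in adult and aged libraries and 3 in EAE libraries, and the highest was 54. Of 3523 ECs with at least 3 Slc38a5 UMIs, 318 were dropped for arterial transcripts, 552 for adhesion molecules and 123 for cycling genes, the last all in juvenile libraries. The adhesion limit dropped 37 of 108 and 38 of 114 such ECs in EAE 1 and 2, and 85 of 246 and 70 of 255 in Aged 1 and 2. It dropped 6 of 71, 57 of 309 and 78 of 338 in Adult 1 to 3. In Juvenile 1 to 4 it dropped 50 of 327, 42 of 297, 46 of 759 and 43 of 699. Just inside the threshold lay 543 cells with 3 UMIs, and just outside it 955 ECs with 2. Car4 in Adult 2 was at 2979 counts per 1000000 UMIs (CPM) in the cells with 3 Slc38a5 UMIs and at 2633 CPM in those with 2. Tfrc in the same library was at 272 CPM inside and 284 CPM outside. Over the 11 libraries Car4 was higher inside in 8 and Tfrc in 5. Car4 in Adult 1 was at 3813 CPM inside against 2343 CPM outside, and in Juvenile 3 at 1515 against 1771 CPM. Any Slc38a5 UMI was found in 0.821% to 7.14% of immune cells against 22.4% to 82.1% of ECs, and no immune cell of any library had 3. These immune cells had at least 5 UMIs of C1qa and C1qb together and none of Cldn5, Flt1 and Pecam1. That choice leaves out droplets with RNA of these EC genes, so the values cannot measure the droplet background of Slc38a5. Median depth was 1858 to 3374 UMIs in those immune cells.

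The label was checked against markers. Tfrc and Car4, which define the label together with Slc38a5, were present in the chosen cells of every library. Nr2f2, the transcription factor of venous identity, was low but present at 47.6 to 87.2 CPM. Over all ECs it was at 89.9 and 98.6 CPM in Juvenile 1 and 2 and at 38.5 to 61.6 CPM in the other libraries. In Juvenile 1 and 2 the chosen cells were therefore not richer in Nr2f2 than all ECs. Among markers of large veins and venules, Selp was at 0 in 8 libraries and at most 5.26 CPM, and the fenestration gene Plvap reached at most 4.20 CPM. Vwf, another marker of these vessels, was present in every library. With each cell thinned to the same number of UMIs, it was found in 12.5% (Adult 1) to 66.0% (EAE 2) of the chosen cells. Vcam1 and Icam1 were limited by the rule itself. The check therefore does not exclude cells of veins or venules. Arterial Hey1, a Notch target, stayed at 14.1 to 76.9 CPM against 183 to 361 CPM in arterial-side ECs. Summed over 10 mural markers the chosen cells held 29.9 to 117 CPM, over 10 microglial markers 155 to 857 CPM, and over 8 neuronal and oligodendrocyte markers 0 to 183 CPM. Over 10 astrocyte markers, of which the organic anion transporter gene Slco1c1 is also expressed by brain ECs, they held 961 to 2226 CPM, and over 11 blood markers 299.8 to 5284 CPM. Ttr, the transthyretin gene that choroid plexus epithelium makes in quantity, was at 3990 to 17400 CPM in 10 libraries and at 48700 CPM in Adult 1.

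Slc38a5-high cells made up the greatest share of ECs in juvenile cortex and the smallest in EAE. They were 42.9%, 42.8%, 57.3% and 52.8% of ECs in Juvenile 1 to 4, 9.51%, 9.45% and 9.58% in Adult 1 to 3, 4.90% and 5.90% in Aged 1 and 2, and 1.97% and 1.96% in EAE 1 and 2. No group overlapped another. The exact (Clopper-Pearson) 95% binomial intervals, which cover counting error only, were for example 54.4% to 60.3% in Juvenile 3, 8.26% to 10.7% in Adult 2, 4.15% to 5.75% in Aged 1 and 1.51% to 2.53% in EAE 1. The mean over units was 51.0% ± 7.42 (SD, n = 3) for Juvenile and 9.51% ± 0.0666 (SD, n = 3) for Adult, a difference of 41.5 percentage points. Aged was at 5.40% ± 0.707 (SD, n = 2), a difference of -4.11 points, and EAE at 1.97% ± 0.00677 (SD, n = 2), a difference of -7.55 points. Two-sided exact permutation tests gave p = 0.1 for Juvenile and p = 0.2 for Aged and for EAE, each the smallest value that so few units allow, and 0.2 for all 3 after adjustment.

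The limit on Vcam1 and Icam1 dropped a larger part of the Slc38a5-rich ECs in aged and EAE libraries than in the others. Its part in the shares was not tested. These shares also moved with depth. When each EC was thinned to 1500 UMIs and the rule applied again, the shares were 18.6%, 23.0%, 28.9% and 27.1% in the juvenile libraries, 4.38%, 3.38% and 3.64% in the adult, 3.17% and 3.10% in the aged and 0.897% and 0.666% in the EAE libraries. Thinning left out 0.891% to 2.18% of juvenile, 4.23% to 9.51% of adult, 11.3% to 15.2% of aged and 14.3% of EAE ECs as too shallow. The order of the groups was the same, but the difference between Aged and Adult went from -4.11 to -0.666 points and then came near the spread of the adult libraries (SD 0.516 points). At the lower bar of any Slc38a5 UMI in a thinned EC, juvenile libraries held 61.5% to 70.3% of ECs, adult 29.8% to 31.7%, aged 22.7% and 24.2%, and EAE 15.3% and 14.4%. Summed over all ECs whatever their count, Slc38a5 was at 960 to 1120 CPM in juvenile, 247 to 274 in adult, 256 and 268 in aged and 139 in both EAE libraries. Aged and Adult therefore overlapped in the total while the shares of high cells did not.

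**Figure D1:**
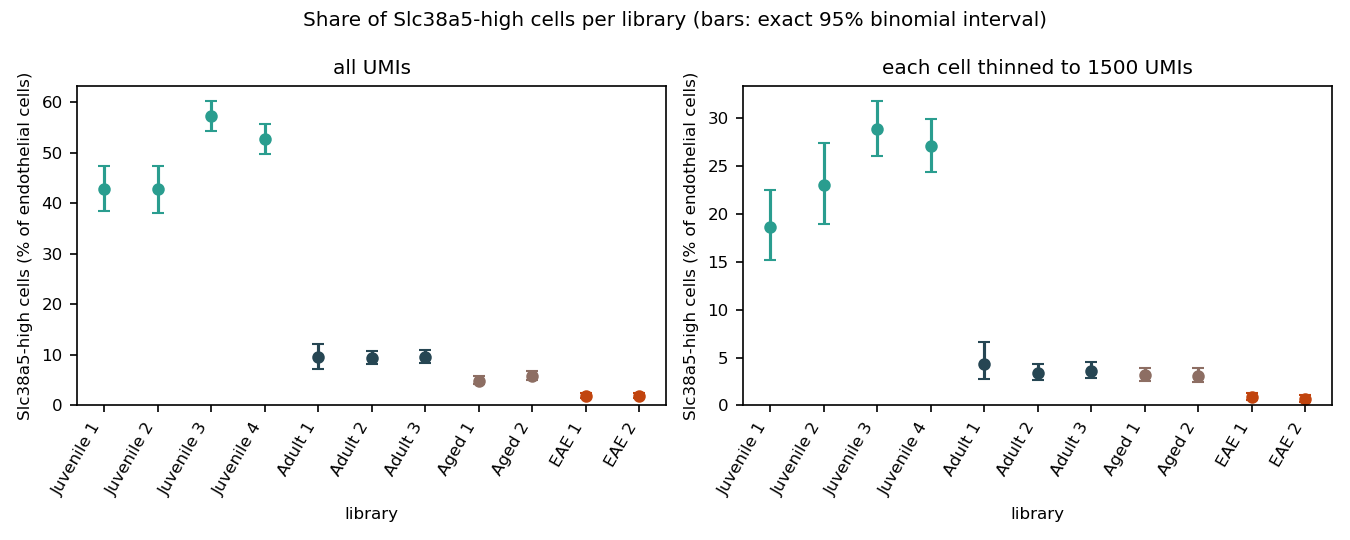
Share of Slc38a5-high cells among ECs in each library (percent, with exact 95% binomial intervals as bars), from all UMIs in the left panel and after thinning each cell to 1500 UMIs in the right panel. Juvenile libraries sit at 42.8% to 57.3% and EAE libraries at 1.96% and 1.97% from all UMIs, and the gap between aged and adult libraries nearly closes after thinning.

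The first comparison asked how Slc38a5-high cells differ from arterial-side ECs of the same libraries, which had at least 1 UMI of Bmx, Gkn3, Sema3g or Gja5 and none of Slc38a5, with the same limits on adhesion and cycling genes. These numbered 2590 cells, with 24 to 54 per juvenile library and 64 to 444 per other library. Median depth in them was 4596 to 5144 UMIs in juvenile libraries and 2498 to 3832 elsewhere. Both populations were chosen from counts in the same cells, so what follows is a description with edgeR estimates, and the counts of called genes carry no independent weight. Among 9974 genes fitted, 7.91% were higher and 10.9% lower in Slc38a5-high cells at an adjusted p of 0.05. These shares are for the average over conditions, and those within single conditions are not given. Conditions differ in cells and units, so the counts of listed genes by condition below cannot be compared between conditions. In adult libraries the arterial-side ECs also carried Ttr at 58100 to 91100 CPM and summed neuronal and oligodendrocyte markers at 1054 to 3489 CPM. Summed blood markers in arterial-side ECs reached 39238 and 30756 CPM in Juvenile 1 and 2, 8063 and 15525 CPM in Aged 1 and 2 and 8951 CPM in EAE 1, against 5284, 1321, 3760, 1461 and 299.8 CPM in the Slc38a5-high cells. In Juvenile 3 and 4 the Slc38a5-high cells held more, 3918 and 1393 against 255 and 115 CPM. The part of this RNA in the differences was not tested.

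Tfrc was at 944, 1120, 912 and 894 CPM in Slc38a5-high cells of Juvenile 1 to 4, at 230, 305 and 284 CPM in Adult 1 to 3, at 240 and 191 CPM in Aged and at 167 and 152 CPM in EAE. Arterial-side ECs of the same libraries held 117 to 217 CPM in juvenile libraries and 32.0 to 94.0 CPM in the others. Car4 was at 1750, 1770, 2190 and 2280 CPM in juvenile Slc38a5-high cells, at 3250, 3160 and 2990 CPM in adult, at 2620 and 2690 CPM in aged and at 809 and 1000 CPM in EAE cells. The arterial-side level of Car4 was 12.1 to 94.4 CPM in juvenile and 124 to 441 CPM in the other libraries. In every library both genes were higher in the Slc38a5-high cells, and the 2 populations did not overlap within any condition. At the cell level, after thinning to 1500 UMIs, 66.1% to 74.3% of juvenile Slc38a5-high cells had a Tfrc UMI against 25% to 36.5% of adult and 18.9% to 29.2% of aged and EAE cells. Car4 was detected in 67.9% to 95.7% of thinned Slc38a5-high cells of any library and in at most 35.1% of arterial-side cells.

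Genes of the venous side were mostly higher in Slc38a5-high cells. Of 18 listed genes known from veins, venules and the venous capillary end, 15 were fitted, 11 were higher and none was lower on average over conditions, with a median log2 difference of 1.68 against -0.0215 over all genes. Within juvenile libraries alone 7 were higher and 3 lower, and in each other condition 9 to 11 were higher and none lower. Tmsb10, which encodes an actin-sequestering thymosin, was at 5400 to 9180 CPM in juvenile, 3650 to 3880 in adult, 2710 and 2760 in aged and 1300 and 1100 CPM in EAE Slc38a5-high cells. Its arterial-side levels were 1020 to 2370, 476 to 517, 423 and 443, and 244 and 382 CPM, and the log2 difference was 2.45 ± 0.08 (SE). Nr2f2 differed by 2.11 ± 0.21 on the log2 scale, from arterial-side levels of 0 to 37.6 CPM. Slc16a1, the monocarboxylate transporter for lactate and ketone bodies, was at 2040 to 2830 CPM in juvenile, 632 to 1140 in adult, 590 and 607 in aged and 400 and 300 CPM in EAE cells, with a log2 difference of 1.40 ± 0.06. Lcn2, the iron-siderophore binding lipocalin, differed by 2.56 ± 0.31, with its highest levels in the EAE libraries (704 and 836 CPM). Vwf, the clotting factor carrier stored in EC granules, was not called: it was lower than in arterial-side cells in all juvenile libraries (139 to 198 against 251 to 368 CPM) and higher in aged and EAE libraries.

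The arterial list mirrored this. Outside the genes of the rule 24 were listed and 23 fitted, of which 21 were lower and 1, the proteoglycan gene Spock2, was higher, with a median log2 difference of -2.89. By condition 20 were lower in juvenile, 17 in adult, 18 in aged and 14 in EAE libraries, and 2 were higher in juvenile ones only. Hey1 differed by -2.89 ± 0.12, and Vegfc, a growth factor made by arterial ECs, by -3.88 ± 0.18 from arterial-side levels of 39.2 to 470 CPM down to at most 17.7 CPM. Mgp, the calcification inhibitor matrix Gla protein, was at 25.3 to 87.0 CPM in Slc38a5-high cells but at 290 and 526 CPM in EAE, each time under the same library's arterial-side level, which ran from 459 to 2350 CPM. The Spock2 call (0.28 ± 0.07) was lost in cells of 2000 to 5000 UMIs, with at least 4 Slc38a5 UMIs and without Juvenile 1. Within conditions Spock2 was called only in juvenile libraries (0.88 ± 0.13).

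**Figure D2:**
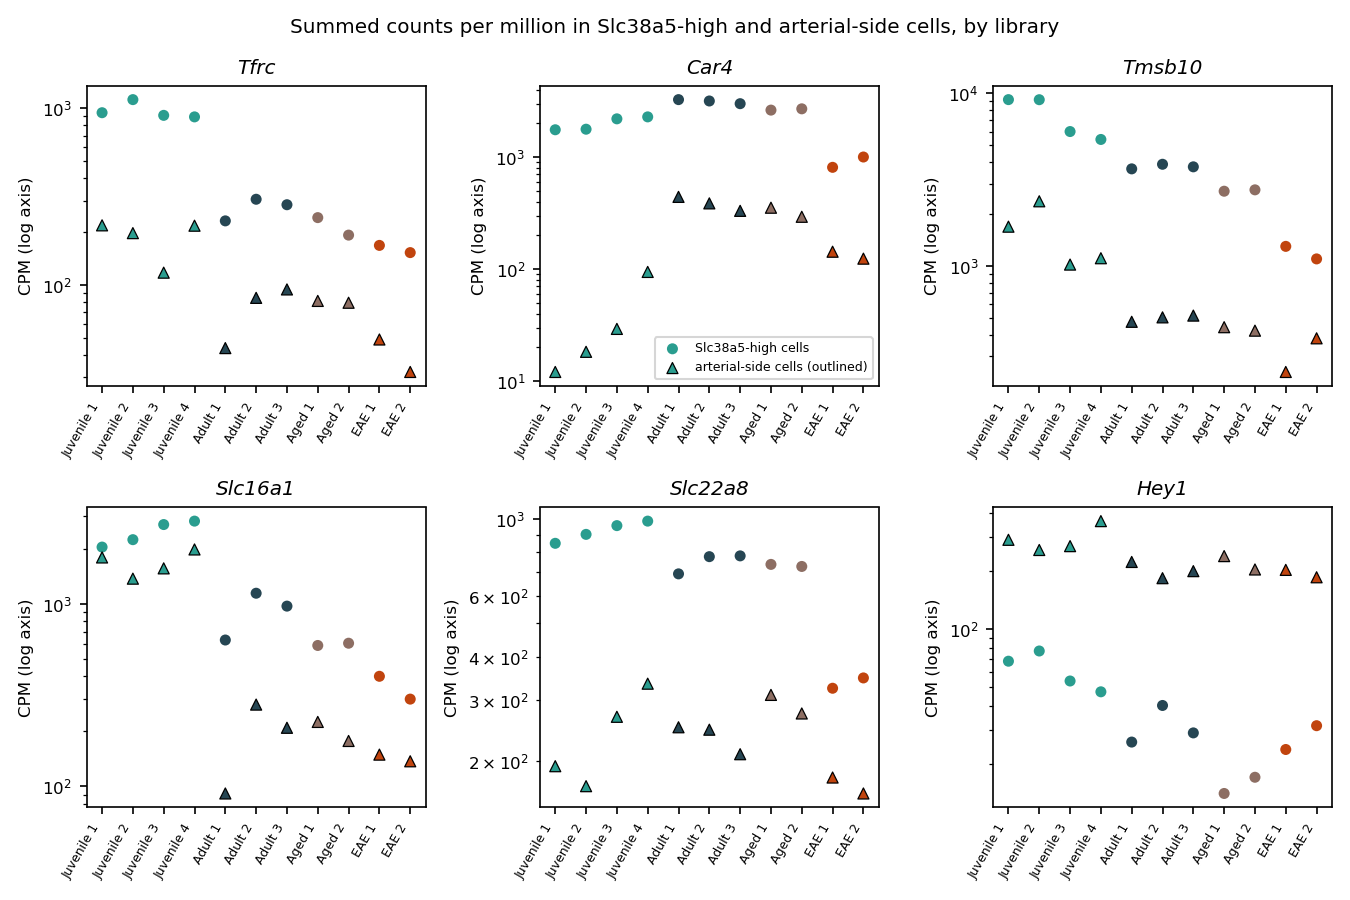
CPM on a log axis of Tfrc, Car4, Tmsb10, Slc16a1, Slc22a8 and Hey1 in each library, with Slc38a5-high cells as circles and arterial-side ECs as outlined triangles. Tfrc, Car4, Tmsb10, Slc16a1 and Slc22a8 lie higher in the Slc38a5-high cells of every library and Hey1 lies lower.

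**Figure D3:**
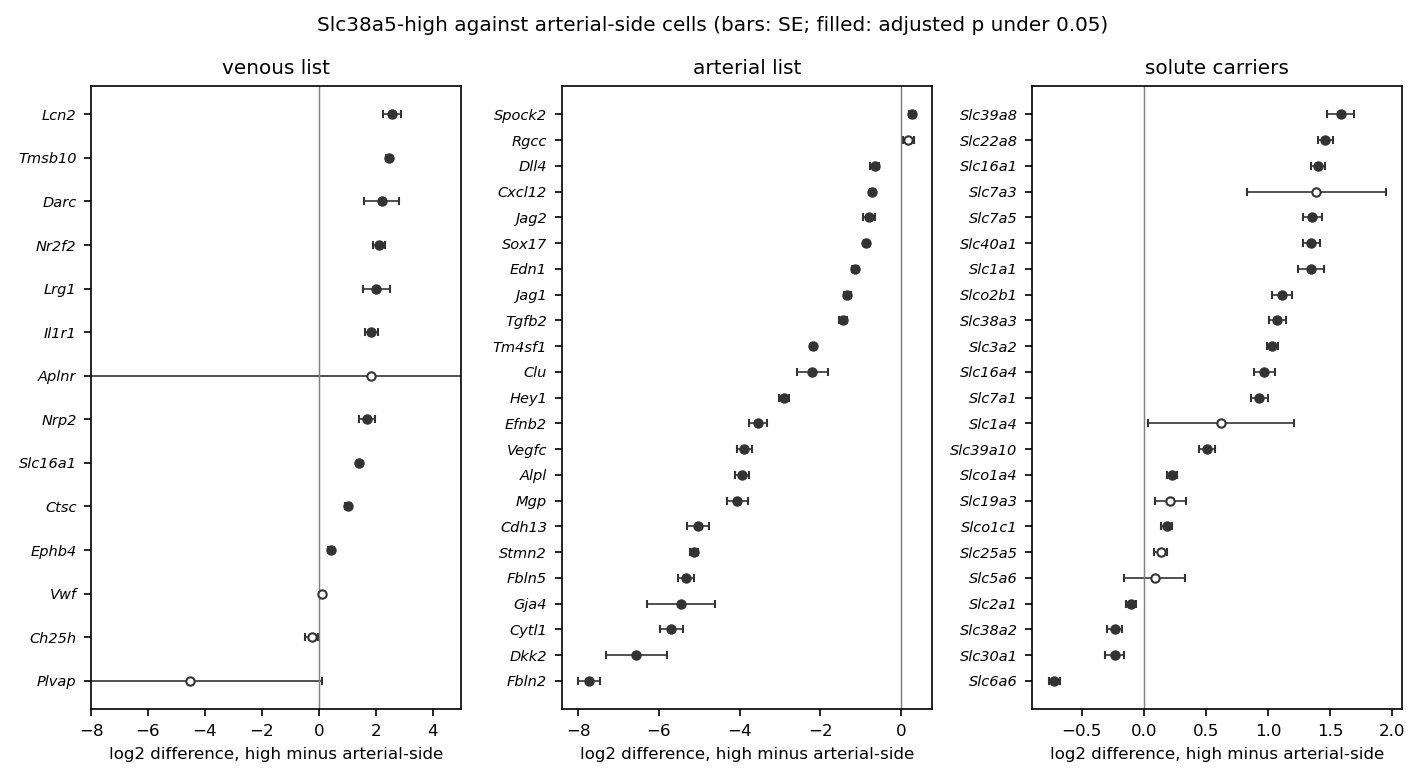
Log2 difference between Slc38a5-high and arterial-side ECs for listed venous, arterial and solute carrier genes, with standard errors as bars and filled points for adjusted p under 0.05. The bars of Aplnr and Plvap run past the axis. Venous genes sit mostly to the right, 21 of 23 arterial genes to the left, and solute carriers on both sides.

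Solute carriers other than Slc38a5 differed between the 2 populations in both directions. Of 24 fitted carriers 14 were higher, 5 were lower and 5 were not called, with a median log2 difference of 0.78 (DESeq2 called 13 higher and 1 lower). By condition 14 were higher and 4 lower in juvenile, 16 and 1 in adult, 14 and none in aged and 10 and 2 in EAE libraries. The organic anion and hormone transporter Slco1a4, counted among the 14, was lower in juvenile libraries (-0.85 ± 0.07) and higher in adult (0.61 ± 0.07), aged (0.74 ± 0.09) and EAE ones (0.41 ± 0.09). Slc22a8, the organic anion transporter OAT3, was at 849, 901, 955 and 984 CPM in juvenile, 693, 777 and 781 in adult, 738 and 728 in aged and 324 and 347 CPM in EAE Slc38a5-high cells, and it differed by 1.46 ± 0.06 from arterial-side levels of 161 to 334 CPM. Slc7a5, the large neutral amino acid transporter LAT1, was at 1280 to 1380 CPM in juvenile, 823 to 962 in adult, 501 and 709 in aged and 814 and 736 CPM in EAE cells, with a difference of 1.36 ± 0.08. Its partner Slc3a2 and the cationic amino acid transporter Slc7a1 were also higher. Slc40a1, the iron exporter ferroportin, differed by 1.35 ± 0.07 and the zinc and manganese importer Slc39a8 by 1.58 ± 0.11. On the other side, the taurine transporter Slc6a6 was lower by -0.72 ± 0.04, although it lay at 1690 and 1830 CPM in aged Slc38a5-high cells against 1810 and 1870 CPM in arterial-side cells. Slc38a2, a close relative of Slc38a5, differed by -0.24 ± 0.06 and was lower in 6 of 10 units. The glucose transporter Slc2a1 differed by -0.10 ± 0.04, a call kept in 7 of 22 alternative settings, and its sign turned (0.11) when every EC without Slc38a5 served as the comparator. Within conditions it was lower in juvenile libraries (-0.58 ± 0.07) and not called in adult (0.02 ± 0.07), aged (0.10 ± 0.08) or EAE ones (0.04 ± 0.08).

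Among 15 fitted genes of iron handling, Tfrc, Slc40a1, Fth1, Steap3 and Pcbp1 were higher and Ftl1 and the transferrin gene Trf lower on average over conditions. For Fth1 and Trf the sign turned between conditions. Fth1, the ferritin heavy chain, was at 13300 to 14600 CPM in juvenile Slc38a5-high cells against 2570 to 3860 CPM in arterial-side cells, but at 1970 to 2270 CPM in adult Slc38a5-high cells against 2890 to 3340 CPM. Trf differed by 2.38 ± 0.23 in juvenile libraries but by -3.22 ± 0.14 in adult and -2.21 ± 0.31 in aged ones. Of 17 barrier genes 6 were higher, among them the efflux pump Abcg2 (0.52 ± 0.05), and 4 lower, among them the caveolar gene Cav1 (-0.53 ± 0.07). By condition, 3 barrier genes were higher and 6 lower in juvenile libraries, and in adult, aged and EAE ones 7, 3 and 1 were higher and none lower. Of 19 genes of Wnt and beta-catenin signalling, which maintains the barrier, 6 were higher, including the transcription factor Lef1 (0.59 ± 0.07) and the feedback inhibitor Nkd1 (1.08 ± 0.07), and 2, Sox17 and Reck, were lower. By condition 8 were higher and 4 lower in juvenile, 9 and 1 in adult, 2 and 1 in aged and 1 and 2 in EAE libraries. Of 10 Notch genes 6 were lower, including the ligands Jag1 (-1.33 ± 0.09) and Dll4 (-0.65 ± 0.10), and the target Hes1 was higher on average (0.24 ± 0.05). By condition 6 were lower in juvenile, 3 in adult, 6 in aged and 2 in EAE libraries, and Dll4 was not called in adult or EAE ones. Hes1 differed by 0.88 ± 0.09 in adult and 0.54 ± 0.09 in juvenile libraries, and by -0.27 ± 0.11 in aged and -0.18 ± 0.12 in EAE libraries, where it was not called. Of 27 genes of class I antigen presentation and interferon response 18 were lower and none higher on average over conditions, with B2m, the class I light chain, at -0.41 ± 0.03. Within conditions 17 were lower in juvenile libraries, 4 in adult, 2 in aged and 6 in EAE ones. As the share of all genes called in each condition is not given, such counts cannot be compared between conditions. The interferon-induced GTPase gene Iigp1, counted among the 18, was higher in adult libraries (0.77 ± 0.17). Against every EC without Slc38a5, 4 of those 27 were lower and the B2m call was lost, with the share of all genes called there not given. Among 17 immediate-early genes, which dissociation also raises, 8 were lower and 1 was higher on average, with 10 lower and none higher in juvenile libraries and 2 lower and 4 higher in adult ones.

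By size, the genes with the greatest surplus outside the lists were Ndnf (3.23 ± 0.22), a secreted neurotrophic factor, Flrt2 (2.65 ± 0.21), an adhesion and guidance receptor, Dnah6 (2.47 ± 0.16), a dynein heavy chain, and Abcg1 (2.23 ± 0.13), a cholesterol exporter. Ndnf was at 53.6 to 68.0 CPM in juvenile, 247 to 337 in adult, 188 and 186 in aged and 71.4 and 31.6 CPM in EAE cells, and arterial-side cells had at most 43.3 CPM. Abcg1 was at 399 to 423 CPM in juvenile cells and at 83.4 to 228 CPM elsewhere, against 23.0 to 67.5 CPM on the arterial side. Below Fbln2 (-7.73 ± 0.27), an extracellular matrix fibulin of the arterial list, the greatest deficits outside the lists were of the embryonic haemoglobin gene Hbb-y (-6.71 ± 0.41) and of Pi16 (-6.45 ± 0.32), a secreted peptidase inhibitor. Prune2 (-5.64 ± 0.35) and Tmem100 (-5.58 ± 0.15), a target of ALK1 signalling, followed. Hbb-y was at -8.75 in adult, -7.2 in juvenile, -3.22 in aged and -7.65 in EAE libraries. The globin genes Hba-a1, Hba-a2, Hbb-bs and Hbb-bt were at -0.48 to -0.15 in adult and -0.997 to 1.22 in juvenile libraries. They were at -3.1 to -2.2 in aged and -6.92 to -5.03 in EAE libraries, and none was called in any condition. Whether Hbb-y shares reads with them was not tested. Tmem100 was at 0 to 9.40 CPM in Slc38a5-high cells and at 80.8 to 694 CPM in arterial-side cells.

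A second comparator was the 8702 ECs without a Slc38a5 UMI and without arterial transcripts. They are called Slc38a5-zero capillary ECs below, although their vessel size and place along the vessel were not measured. Their median depth was under that of the Slc38a5-high cells in every library, for example 4533 against 6014 UMIs in Juvenile 3, 2025 against 2662 in Aged 1 and 2086 against 2982 in EAE 2. Missed Slc38a5 transcripts therefore cannot be told from absent ones. Among 10337 genes 9.93% were higher and 15.9% lower in Slc38a5-high cells. This comparator was rich in Ttr, at 139000 to 204000 CPM in juvenile, 95200 to 120000 in adult, 34000 in aged and 11300 and 12900 CPM in EAE libraries, and all 6 choroid markers were lower in Slc38a5-high cells. Car4 differed by 1.57 on the log2 scale, Ndnf by 1.53 ± 0.14, Tmsb10 by 1.26 ± 0.04 and Tfrc by 1.21. Of 15 venous genes 10 were higher and none lower, and of 24 solute carriers 14 were higher and 2 lower. A further setting left out cells with over 10% of their UMIs from Ttr or over 5 UMIs of other cell types' markers. It was chosen after seeing the data, and fewer genes were called in all. In it 7 venous genes and 9 solute carriers were still higher. Higher Wnt genes went from 9 to 3 of 19 and higher barrier genes from 9 to 2.

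Levels were also followed over steps of the cell's Slc38a5 count among ECs of similar depth (2000 to 5000 UMIs). Adult 2 serves as the example, and the other libraries are not given. In Adult 2, Car4 was at 1490 CPM in cells with no Slc38a5 UMI, 2373 with 1, 2876 with 2, 3047 with 3 or 4 and 3683 CPM with 5 or more, over 48 to 529 cells per step. Hey1 went the other way in that library, from 88.7 to 30.6 CPM. Tfrc was at 187 CPM without Slc38a5 and at 245 to 311 CPM in all later steps, with no order among them. These values are a description, since the cells were sorted by a gene of the rule.

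Between conditions, the fits compared Slc38a5-high cells of each group with the adult ones over 8334 genes. The adult libraries are shared by all 3 comparisons. Slc38a5 itself was at 1310 to 1580 CPM in juvenile, 1040 to 1130 in adult, 1500 and 1380 in aged and 1150 and 1180 CPM in EAE cells, which the threshold of 3 UMIs shapes and which was not tested.

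Juvenile cells had more RNA of many iron-handling genes than adult cells and less of most barrier genes and of antigen presentation and interferon response genes, while solute carriers went both ways. Of 14 iron genes 8 were higher and 1 was lower, where 16.9% of all genes were higher and 17.5% lower. Fth1 was at 13300, 13700, 14300 and 14600 CPM against 2270, 1970 and 2000 CPM, a log2 rise of 2.87 ± 0.10 (adjusted p = 1.05e-16). Tfrc, with the values above, rose by 1.85 ± 0.12 (adjusted p = 4.99e-12), and all juvenile libraries lay above all adult ones. Car4, the other marker of the label, was lower in juvenile cells (-0.49 ± 0.11, adjusted p = 0.000841), with all juvenile libraries below all adult ones. The rule took 42.8% to 57.3% of juvenile ECs but 9.45% to 9.58% of adult ones. Over all ECs Car4 overlapped, at 1086, 1131, 1661 and 1632 CPM in juvenile and 1544, 1451 and 1387 CPM in adult libraries. Tfrc over all ECs was at 698 to 832 CPM in juvenile and 122 to 175 CPM in adult libraries. The part of the selection in these differences was not tested. Slc11a2, the divalent metal transporter DMT1, rose by 1.01 ± 0.23 and the endosomal ferrireductase gene Steap3 by 0.97 ± 0.23. In cells of 2000 to 5000 UMIs, where fewer genes were called in all, 5 of 13 iron genes were higher and none lower.

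Of 24 solute carriers 13 were higher and 9 lower in juvenile cells, and amino acid carriers were among both. Slc1a4, a neutral amino acid exchanger, was at 175, 211, 145 and 143 CPM against 0, 2.23 and 2.32 CPM in adult cells, and Slc7a8, a second exchanger (LAT2), at 69.3 to 80.0 against 0 to 3.35 CPM. Slc16a1 rose by 1.56 ± 0.19 (adjusted p = 9.64e-05), Slc39a8 by 1.19 ± 0.12, Slc7a5 by 0.71 ± 0.11 and Slc40a1 by 0.56 ± 0.16. Slc2a1 was at 764, 721, 860 and 933 CPM against 2900, 2000 and 2040 CPM and fell by 1.34 ± 0.13 on the log2 scale (adjusted p = 1.63e-07). Slco1a4 was at 397 to 535 CPM against 2300, 2540 and 2540 CPM (-2.25 ± 0.11, adjusted p = 3.75e-14), and Slc6a6 (-1.05 ± 0.10) and the glutamate transporter Slc1a1 (-1.84 ± 0.13) also fell. The cationic amino acid transporter Slc7a3 fell too (-1.72 ± 0.38), with 3.01 to 9.12 CPM against 8.66, 25.7 and 24.4 CPM. Apart from Slc7a3, no juvenile library overlapped an adult one for the carriers named here.

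Barrier genes were mostly lower in juvenile cells, 11 of 16 against 3 higher. Abcb1a, P-glycoprotein, was at 215 to 261 CPM against 892 to 974 CPM and fell by 1.81 ± 0.10 on the log2 scale (adjusted p = 4.79e-13), and Abcg2 fell by 1.5 ± 0.10. Mfsd2a, the lysophospholipid transporter that restrains transcytosis, was at 779 to 852 CPM against 355 to 407 CPM and rose by 1.19 ± 0.10 (adjusted p = 1.11e-09). Of 8 tip cell genes, which mark sprouting vessels, 5 were higher and none lower. Apln, the apelin ligand, was at 311, 284, 307 and 263 CPM in juvenile cells and at 0, 2.23 and 0 CPM in adult cells, a ratio of 289 (95% counting interval 79.8 to 2384) from 3254 against 2 UMIs. The apelin receptor Aplnr was at 467 to 502 CPM against 13, 41.3 and 51.1 CPM, a rise of 3.66 ± 0.18. Esm1, another tip gene, was at 2.51 to 7.23 CPM in juvenile cells.

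All 26 fitted genes of class I presentation and interferon response were lower in juvenile cells, with a median log2 difference of -1.88 against -0.0279 over all genes, and 25 of 25 in cells of 2000 to 5000 UMIs. B2m was at 743, 756, 772 and 789 CPM against 2260, 2590 and 2480 CPM (-1.57 ± 0.10, adjusted p = 4.39e-12), and H2-K1, a class I heavy chain, at 76.5 to 87.0 against 533 to 588 CPM (-2.67 ± 0.11). The metallothionein genes Mt1 and Mt2, which buffer zinc, were lower by log2 values of -3.67 ± 0.14 and -4.38 ± 0.16. Of 17 immediate-early genes 14 were lower and none higher, their summed level was 6174 to 7863 CPM in juvenile and 13906 to 21857 CPM in adult cells, and the part of this, and of the greater juvenile depth, in the other differences was not tested. Among the steepest single changes, Igfbp4, an insulin-like growth factor binding protein, rose by 5.88 ± 0.27 and the actin-bundling gene Fscn1 by 4.88 ± 0.19. Xdh, xanthine dehydrogenase, changed by -7.04 ± 0.36, the sphingolipid desaturase gene Degs2 by -5.15 ± 0.16 and the hypoxia-inducible Ndrg1 by -5.0 ± 0.13, from 432 to 520 CPM in adult to 12.5 to 14.5 CPM in juvenile cells. Wnt genes were mixed, with 2 of 18 higher and 6 lower, Lef1 among the latter (-1.0 ± 0.10).

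Aged cells differed far less from adult cells, with 1.54% of genes higher and 1.66% lower. Of 20 acute-phase and activation genes 7 were higher (Lcn2, Lrg1, Mt1, Mt2, Il1r1, Hif1a and Vwf) and none lower. Their median log2 difference was 0.67 against 0.00356 over all genes. This list was chosen with earlier results of these data known, so the count is a description and carries no independent weight. Lcn2, Lrg1, Il1r1 and Vwf are also on the venous list, of which 5 of 14 genes were higher and 1 (Aplnr) lower. Mt1 was at 1680 and 1810 CPM against 680, 611 and 670 CPM and rose by 1.41 ± 0.13 (adjusted p = 1.30e-06). Mt2 was at 783 and 849 CPM against 199, 231 and 225 CPM and rose by 1.87 ± 0.14 (adjusted p = 1.72e-08). Vwf was at 298 and 263 CPM against 117, 135 and 125 CPM (1.12 ± 0.16, adjusted p = 0.000125). Lcn2 was at 47.0 and 41.7 CPM against 3.48 to 6.70 CPM (3.10 ± 0.41, adjusted p = 4.58e-05). The aged libraries of these 4 genes lay above every adult library. Lrg1 (adjusted p = 0.0322) rested on unequal libraries, with 103 and 26.5 CPM, and its call was lost when single libraries were left out, as were those of Hif1a and of the interleukin-1 receptor gene Il1r1.

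Of the antigen presentation list only B2m (0.79 ± 0.11), H2-D1 and H2-K1 (0.53 ± 0.11) were called among 26 genes, all higher, and the H2-K1 call was lost without Aged 1, Aged 2 or Adult 3. H2-Q7, a nonclassical class I gene, was at 101 and 77.7 CPM against 21.7, 4.47 and 4.64 CPM and rose by 3.71 ± 0.38 (adjusted p = 2.75e-06). The scramblase gene Plscr2 rose by 2.39 ± 0.30 and Cystm1 by 1.96 ± 0.22. Lower were Slc43a2, an amino acid transporter, at 4.70 and 3.79 CPM against 43.3, 64.8 and 66.1 CPM (-3.87 ± 0.48, adjusted p = 2.07e-05), the neurodevelopmental gene Auts2 (-2.81 ± 0.31) and the protease inhibitor gene Serpine2 (-2.10 ± 0.26). Notch genes Dll4 and Nrarp were lower, 2 of 9 fitted, and both calls were lost without Aged 2, that of Nrarp also without Aged 1. Of 24 solute carriers 1 was higher (Slc6a6) and 4 lower (Slc7a5, Slc7a1, Slco2b1 and the multivitamin transporter Slc5a6), and without Adult 1 the counts were 2 and 8. The calls of Slc6a6, Slc7a5, Slc7a1 and Slco2b1 were each lost without Aged 1. Tfrc (-0.39 ± 0.15, adjusted p = 0.172), Car4 (-0.24 ± 0.12, adjusted p = 0.33) and Fth1 (-0.06 ± 0.11, adjusted p = 0.844) did not pass. The neutrophil genes S100a8 and S100a9 and the immunoglobulin gene Igkc were also higher, with S100a8 at 72.8 and 121 CPM against 13 to 17.9 CPM in adult cells, and their part in the result was not tested.

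EAE cells, 116 in all with 400285 UMIs, had more acute-phase and antigen presentation RNA than adult cells and less RNA of many solute carriers. Genes higher made up 5.17% and genes lower 3.83% of those fitted. Of 20 acute-phase genes 16 were higher and none lower, with a median log2 difference of 2.06 against -0.0311 over all genes. The list was chosen with earlier results of these data known. The study had already shown Lrg1, Hif1a, Pdgfb, Cd74, Vwf, Ch25h and Maff as raised by EAE in its reactive venule ECs. It also described inflammatory ECs that emerge in EAE and resemble its class of capillary and postcapillary venular ECs. In those it reported higher Lcn2, Mt2 and Lrg1. The count is therefore a description and carries no independent weight. Lcn2 was at 704 and 836 CPM against 4.33, 6.70 and 3.48 CPM, a rise of 7.28 ± 0.26 (adjusted p = 9.34e-16). Lrg1, a leucine-rich glycoprotein that acts on TGF-beta signalling in vessels, was at 728 and 720 CPM against 0, 5.58 and 6.96 CPM (7.06 ± 0.49, adjusted p = 1.03e-05). Vwf was at 733 and 757 CPM against 117, 135 and 125 CPM (2.59 ± 0.16, adjusted p = 3.73e-11), and after thinning a Vwf UMI was found in 51.8% and 66.0% of EAE cells against 12.5% to 20.9% of juvenile and adult cells. Il1r1 rose by 3.03 ± 0.30, the transcription factor genes Maff by 2.23 ± 0.20 and Cebpd by 1.89 ± 0.20, and Ch25h, cholesterol 25-hydroxylase, by 4.29 ± 0.36. For each of these genes both EAE libraries lay above all adult ones. Lcn2, Lrg1, Vwf, Il1r1, Ch25h and Darc are also on the venous list, of which 7 of 14 genes were higher and 3 (Tmsb10, Aplnr and Slc16a1) lower. Serpina3n, a serine protease inhibitor, was at 33.3 and 52.6 CPM in EAE and had no UMI in adult cells, which makes it at least 28.5-fold higher when 3 UMIs over the adult group are taken as the floor.

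Of 26 genes of class I presentation and interferon response 14 were higher in EAE cells and none lower. B2m was at 6450 and 7090 CPM (1.52 ± 0.11, adjusted p = 3.02e-10) and H2-K1 at 1930 and 2160 CPM (1.92 ± 0.11, adjusted p = 1.94e-11), above all adult libraries. The immunoproteasome gene Psmb8 rose by 1.55 ± 0.15. With at least 4 Slc38a5 UMIs as the threshold, where fewer genes were called in all, 7 of 25 such genes were higher and none lower. Neutrophil S100a8 was at 76.1 and 110 CPM in EAE cells and called higher with S100a9, among 8 fitted blood markers, and the part of this RNA was not tested. Microglial markers summed to 557 and 599.5 CPM in EAE and to 343 to 857 CPM in adult cells.

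The carriers went the other way in EAE, 12 of 24 lower against 1 higher, with a median log2 difference of -0.74. Slc22a8 was at 324 and 347 CPM against 693, 777 and 781 CPM and fell by 1.12 ± 0.14 on the log2 scale (adjusted p = 3.39e-06). Slc40a1 was at 214 and 210 CPM against 377, 659 and 736 CPM (-1.48 ± 0.25, adjusted p = 0.00209), and Slc16a1 at 400 and 300 CPM against 632, 1140 and 969 CPM (-1.36 ± 0.26, adjusted p = 0.009). Slc39a8 (-1.14 ± 0.22) and Slc6a6 (-0.91 ± 0.13) fell as well. Slc2a1 was the exception, at 5040 and 4510 CPM against 2900, 2000 and 2040 CPM, a rise of 1.11 ± 0.15 (adjusted p = 4.03e-05). Slc7a5 did not pass, with 814 and 736 against 823 to 962 CPM (-0.14 ± 0.14, adjusted p = 0.662). No EAE library overlapped an adult one for the carriers called here by name. The call of Slc40a1 was lost without either EAE library, that of Slc16a1 without EAE 2 and that of Slc39a8 without EAE 1, each of which leaves 1 EAE library that is assumed to vary like the other groups.

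**Figure D4:**
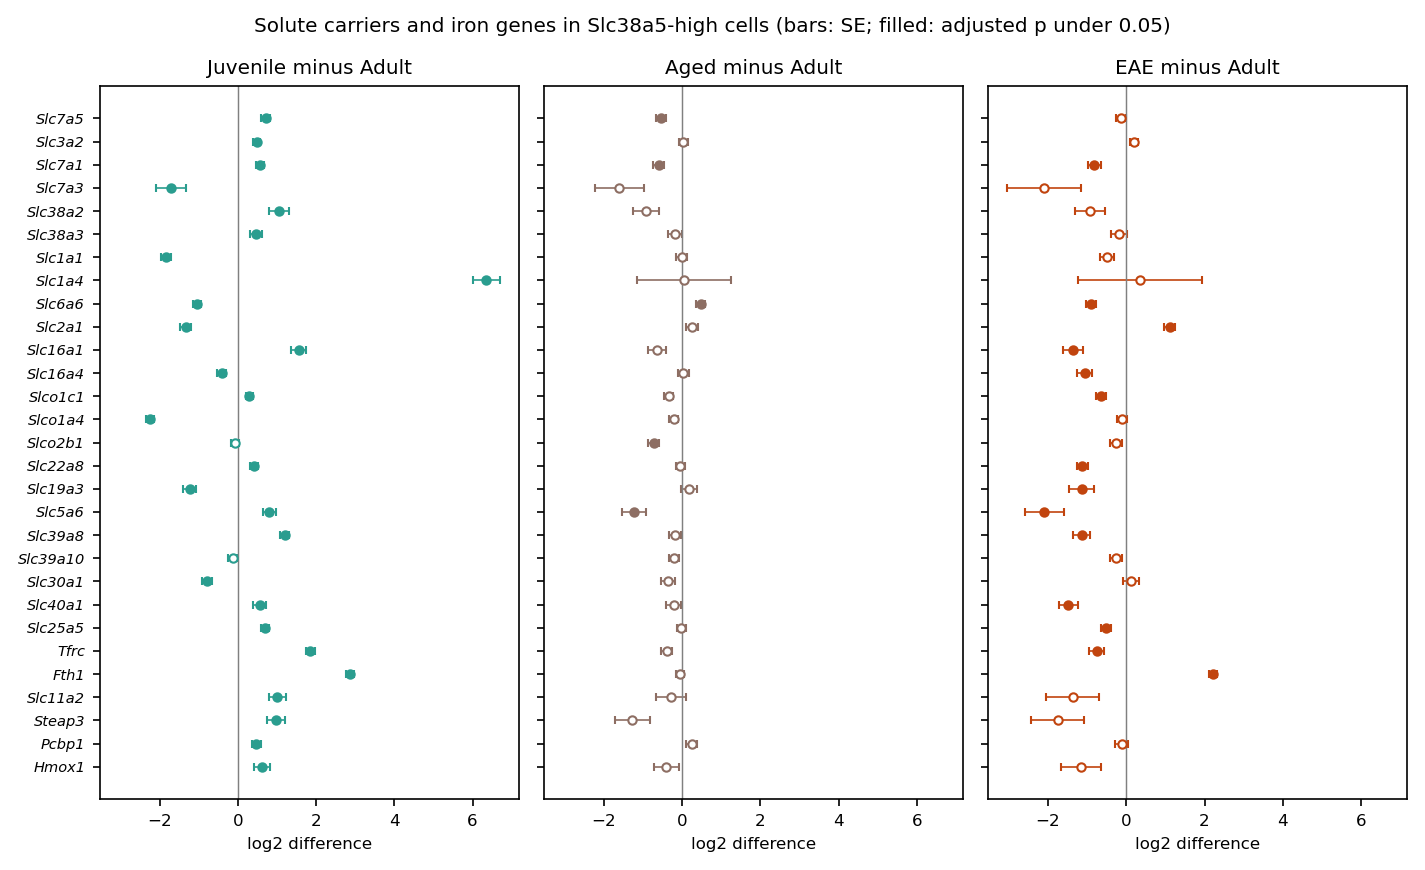
Log2 difference from Adult in Slc38a5-high cells, with standard errors as bars, for 23 solute carriers and 6 genes of iron handling, in a panel each for Juvenile, Aged and EAE. Fth1 is higher in Juvenile (2.87) and EAE (2.22) and near 0 in Aged (-0.06), while Slc16a1 and Slc40a1 are higher in Juvenile and lower in EAE.

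The markers that define the cells also moved in EAE. Car4 was at 809 and 1000 CPM against 3250, 3160 and 2990 CPM and fell by 1.74 ± 0.14 on the log2 scale (adjusted p = 2.77e-09). Tfrc fell by 0.76 ± 0.19 (adjusted p = 0.00836), a call lost without either EAE library. Over all ECs Car4 was at 390 and 394 CPM in EAE and at 1387 to 1544 CPM in adult libraries. Tfrc over all ECs was at 79.6 and 76.5 CPM in EAE and at 122 to 175 CPM in adult libraries. Neither Car4 nor Tfrc had a called difference from the arterial-side change. Tmsb10 fell by 1.6 ± 0.20 (adjusted p = 0.000155). Fth1 was at 9000 and 9600 CPM against 2270, 1970 and 2000 CPM and rose by 2.22 ± 0.11 (adjusted p = 3.62e-13), so among 14 iron genes 1 was higher and 2 lower. Of 18 Wnt genes 7 were lower and none higher, with Nkd1 at 186 and 189 CPM against 338 to 501 CPM (-1.24 ± 0.18, adjusted p = 5.15e-05). At 4 Slc38a5 UMIs, where fewer genes were called in all, only 1 Wnt gene was lower. Barrier genes were split, 2 higher and 4 lower of 16, with Mfsd2a at 200 and 174 CPM against 355 to 407 CPM (-1.01 ± 0.16, adjusted p = 9.07e-05). Ndnf (-2.43 ± 0.27), Htra1 (-3.20 ± 0.46), a secreted serine protease, and Hes1 (-1.99 ± 0.37) fell, the last call lost without either EAE library.

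Several genes with the steepest changes in EAE rested on few UMIs in 1 group, and their ratios are given with counting intervals. Against Adult, the transcription factor gene Zbtb16 was at a ratio of 71.2 (95% counting interval 22.8 to 359), Plac8 of 67.1 (16.9 to 582), the potassium channel gene Kcna5 of 64.6 (16.2 to 561), the glucocorticoid-responsive Fkbp5 of 57.1 (14.1 to 500) and Doc2b of 36.4 (10.9 to 190). In the other direction, Adult exceeded EAE for the phospholipid transfer protein gene Pltp at a ratio of 18.7 (3.28 to 747) and for the homeobox gene Meox1 at 10.6 (2.85 to 88.4). Aplnr had no UMI in EAE or aged cells, which puts it at least 4.69-fold and 11.2-fold lower than in adult cells.

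**Figure D5:**
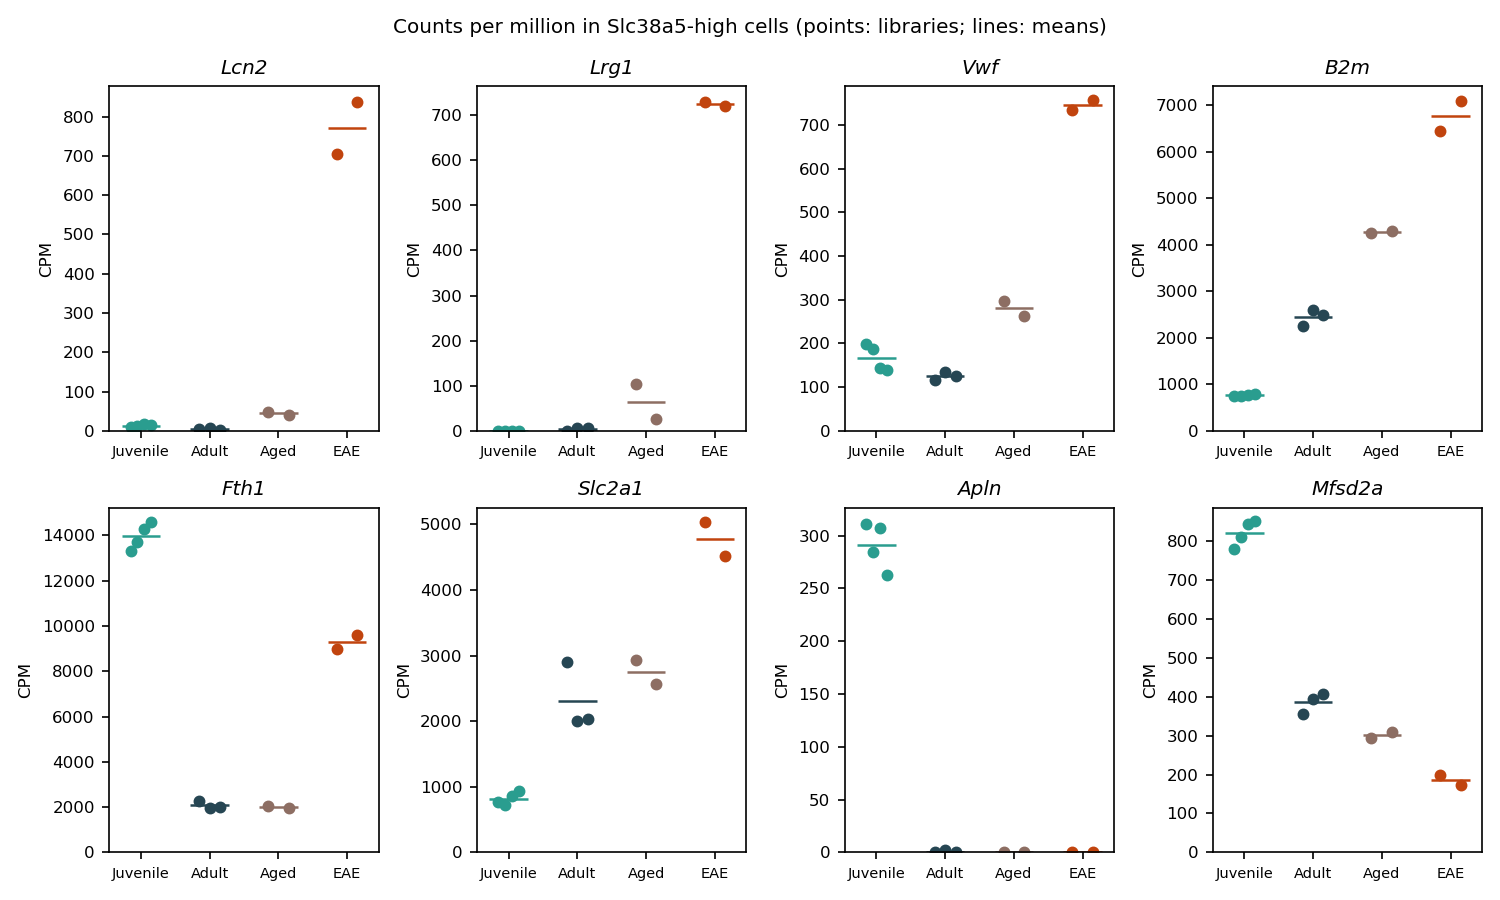
CPM of Lcn2, Lrg1, Vwf, B2m, Fth1, Slc2a1, Apln and Mfsd2a in Slc38a5-high cells, with a point for each library and a line at each group's mean. Lcn2 (704 and 836 CPM), Lrg1 (728 and 720 CPM) and Vwf (733 and 757 CPM) are highest in EAE, B2m lies highest in EAE and lowest in Juvenile, and Apln is found almost only in Juvenile.

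Whether these changes differed from those of arterial-side ECs was tested as the difference of the 2 populations' changes. Such a difference was called for 10.2% of 9974 genes in Juvenile, 0.431% in Aged and 1.13% in EAE. In EAE, 8 of 24 solute carriers had a more downward change in Slc38a5-high cells than in arterial-side ones and none the other way, with Slc16a1 at -0.92 ± 0.17 (adjusted p = 0.00175), Slc7a5 at -1.07 ± 0.21 (adjusted p = 0.0144) and Slc22a8 at -0.71 ± 0.18 (adjusted p = 0.0244) on the log2 scale. Of 22 alternative settings, the call was lost in 4 each for Slc16a1, Slc7a5 and Slc6a6, in 9 for Slc22a8, 10 for Slc1a1, 11 for Slc19a3 and 2 each for Slc3a2 and Slc38a2. For Slc7a5 this came with a rise on the arterial side, from 267 to 346 CPM in adult to 539 and 613 CPM in EAE. Vwf rose further in Slc38a5-high cells, by 1.16 ± 0.18 (adjusted p = 3.99e-05), and Fth1 by 1.09 ± 0.13 (adjusted p = 0.000283). For Slc2a1 the difference between the populations' changes was 0.02 ± 0.11 (adjusted p = 0.989). Most genes of the other lists raised in EAE had no called difference. Of 21 acute-phase genes 1 (Vwf) was more upward and 1 (Mt2) more downward, and of 27 class I and interferon genes 3 were more downward. In Juvenile, 15 of those 27 and 8 of 17 barrier genes were more downward and none more upward. The counts of all called differences moved with single libraries. The EAE count went from 113 to 58 without EAE 1, 63 without EAE 2 or Adult 2, 60 without Adult 3 and 232 without Adult 1. The Aged count went from 43 to 14 without Aged 1, 17 without Aged 2 or Adult 2, 15 without Adult 3 and 177 without Adult 1. The Juvenile count went from 1015 to 669 without Adult 2 and 659 without Adult 3.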

How the data were processed

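The deposited values are raw UMI counts, listed for each gene in each cell barcode, which the authors made from 10x 3′ reads with UMI-tools, STAR on mm10 and featureCounts. The labels' processing notes give UMI-tools 0.5.3, STAR 2.5.3a and featureCounts 1.6.1, and the study's methods other versions. The deposited counts were not normalized, and the study's stated filters on genes and mitochondrial share were applied here. The 11 libraries held 54646 barcodes, of which 50625 were kept.

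UMIs of each population were summed per library. ECs of Juvenile 1 and 2 agreed within sampling noise (mean squared standardized difference 1.08) and were summed, giving 10 units. edgeR 4.0.16 (R 4.3.3) fitted quasi-likelihood models with TMM scaling, filterByExpr and robust dispersions to all genes, with Benjamini-Hochberg adjusted p under 0.05 as the call. The 18 genes of the rule stayed in library sizes and were not tested. Comparisons within libraries used the unit as a block and the mean of the 4 conditions' differences. CPM are UMIs per 1000000 UMIs of the population. Fold changes of genes near 0 depend on edgeR's prior count, so groups with no UMI were set at a floor of 3 UMIs over the group, and groups with 1 to 3 UMIs are given as ratios with exact intervals. Intervals cover counting error only.

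Named genes were the listed genes and, per comparison, the 8 largest changes per direction among called genes whose higher group averaged 50 CPM or more, the same direction in every unit or groups that did not overlap, without mitochondrial, ribosomal and other cell types' marker genes. Members and lists were chosen with earlier results of these data known. Unc5b, Upp1 and Ube2c were not analysed here, and results of a few other genes are not reported here, although they stay in the counts of their lists. Alternatives were DESeq2 1.42.0, no filter on low counts, cells of 2000 to 5000 UMIs, a threshold of 4 Slc38a5 UMIs, other comparators, no doublets (Scrublet in scanpy 1.11.5), the 11 libraries with a replicate block, and leaving out each library. Shares were tested by exact permutation over units. The fits were tested on simulated data.

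Replicate numbers gave no sign of pairing samples, as given in the closing section.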

Additional observations from a re-analysis of the deposited data

Results flagged for a closer look

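Over 46 values tested across the 4 juvenile libraries, the flow-responsive transcription factor gene Klf2 in Slc38a5-high cells stood out with 1550 CPM in Juvenile 2 against 1300, 1250 and 1260 CPM in the others, a gap of 0.833 of the whole range. Juvenile 1 and 2, which agreed within sampling noise, entered as separate libraries, so that the test had fewer distinct units than values. Chance alone would set off about 1 in 20 such values.

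The other 71 results are genes whose change from Adult differed between Slc38a5-high and arterial-side ECs by edgeR's test of that difference. Values are log2 differences, positive where the change was more upward in Slc38a5-high cells, and fitted values of genes near 0 in a population, such as Apln, depend on the prior count. Arterial-side ECs of adult libraries carried Ttr at 58100 to 91100 CPM, and the part of such RNA in these differences was not tested.

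In Juvenile, transport and iron genes differed in both directions. The difference was 2.90 for Fth1, 2.67 for Car4, 1.47 for Slc7a5 and 0.77 for Tfrc, and it was -1.46 for Slc16a1, -1.46 for Slco1a4 and -1.19 for Slc6a6. The steepest positive values were 9.65 for Apln, 5.60 for Trf, 4.91 for Fgfbp1, 4.30 for Bgn, 3.50 for Cnp, 3.21 for Apod and 3.15 for Cldn11. Trf, Cnp, Apod and Cldn11 are known from oligodendrocytes or meningeal and glial cells. The steepest negative values were -4.51 for Gm9946, -4.40 for Ptprr, -4.36 for A4galt, -3.75 for St8sia6, -3.45 for Ndrg1, -3.32 for Rsad2, -3.18 for Acer2 and -3.03 for Cmpk2. Ifitm3, an interferon-induced membrane protein gene, was at -1.67 and Klf2 at -0.53. Cldn11 reversed under 3 of 22 alternative settings (to -0.416) and Slc16a1 under 1 (to 0.139), and the calls of Cnp (down to 0.808) and Fgfbp1 were lost under 3 each. Other calls were lost less often, for example that of Gm9946 under 2 and those of Car4 and Bgn under 1 each.

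In Aged, the venous and acute-phase genes Vwf (0.95), Mt1 (0.93) and Mt2 (1.03) rose further in Slc38a5-high cells. Further positive values were 2.37 for Plscr2, 2.16 for Aplp1, 2.00 for Ltc4s, 1.72 for Gm16418, 1.71 for Stmn2, 1.53 for Ptgds and 1.41 for Ezr. Notch and Wnt genes were among the negative values, with -1.68 for Nrarp, -1.15 for Hes1, -1.03 for Notum and -0.68 for Foxq1, beside -1.38 for Agpat2, -0.99 for Synm, -0.92 for Akap12 and -0.82 for Brd2. Many of these calls depended on the setting. Of 22 alternatives the call was lost in 15 for Stmn2, 11 each for Gm16418 and Agpat2, 10 each for Ezr and Brd2, 9 each for Foxq1 and Notum, 8 for Ltc4s, 7 each for Ptgds, Akap12 and Nrarp and 5 each for Vwf and Synm, and Aplp1 lost it in 5 and reversed in 2 (to -0.571).

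In EAE, Fth1 (1.09) and Vwf (1.16) rose further in Slc38a5-high cells. Carriers had more downward changes, with -0.92 for Slc16a1, -1.07 for Slc7a5, -0.62 for Slc3a2, -0.97 for Slc38a2, -0.81 for Slc1a1, -0.62 for Slc6a6, -0.71 for Slc22a8 and -1.35 for the thiamine transporter gene Slc19a3, and with -1.08 for Mfsd2a. Hes1 was at -1.06, Foxq1 at -1.11 and the interferon-induced GTPase gene Iigp1 at -1.41. The steepest positive values were 3.80 for Pcp4, 3.53 for Aplp1, 2.94 for Slc22a17, 2.78 for Trf, 2.51 for Plscr2, 2.30 for Cd63 and 1.97 for Cd52. The steepest negative ones were -2.09 for Phlda1, -1.98 for Brox, -1.91 for Wars, -1.81 for Serpine2, -1.71 for Fam101b, -1.62 for Nde1, -1.62 for Sesn1 and -1.53 for Pmaip1. Of 21 or 22 alternatives the call was lost in 13 each for Cd63 (down to 0.421) and Trf, 11 each for Pcp4 (down to 0.635) and Brox, 7 each for Cd52, Wars and Pmaip1, 6 each for Slc22a17 (down to 0.907) and Aplp1, 5 for Serpine2, 4 for Mfsd2a, 3 each for Phlda1 and Nde1 and 1 each for Iigp1, Vwf and Sesn1. Among the carriers it was lost in 11 for Slc19a3, 10 for Slc1a1, 9 for Slc22a8, 4 each for Slc16a1, Slc7a5 and Slc6a6 and 2 each for Slc3a2 and Slc38a2. Trf also reversed in 1 (to -0.00146), as did Cd52 (to -0.12).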

How the results depend on the processing

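Of the named genes' values under all alternatives, 4887 kept direction and side of the threshold, 448 lost the call and 9 reversed, and 150 of 251 values, each of a named gene in 1 comparison, kept the call in every setting. Counts of called genes moved by over 1.5 times as follows, and the cause was not tested. In cells of 2000 to 5000 UMIs, which are fewer, the count was 1239 against arterial-side ECs, 798 against Slc38a5-zero capillary ECs, 1684 for Juvenile and 295, 12 and 26 for the differences between populations in Juvenile, Aged and EAE. Without cells rich in other types' RNA, chosen after seeing the data, it was 906 against Slc38a5-zero capillary ECs and 24 and 59 for the differences in Aged and EAE. With near-identical library pairs summed it was 1830 for Juvenile, 92 for Aged, and 18 and 74 for the differences in Aged and EAE. With at least 4 Slc38a5 UMIs it was 164 for Aged and 353 for EAE. DESeq2 gave 482, 4 and 31 for the differences in Juvenile, Aged and EAE, where edgeR gave 1015, 43 and 113. With no filter on low counts it was 402 for Aged and 68 for the difference in Aged. With at least 2 arterial UMIs in the comparator the differences numbered 661, 20 and 60, and against every EC without Slc38a5 the EAE one numbered 221.

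Leaving out 1 library each gave 1483 to 2047 genes against arterial-side ECs, 2051 to 2900 against Slc38a5-zero capillary ECs, 2072 to 2989 for Juvenile, 64 (without Aged 1) to 436 (without Adult 1) for Aged and 327 (without EAE 1) to 848 (without Adult 1) for EAE. The Aged count was 74 without Aged 2 and 97 without Adult 2, and the EAE count 360 without EAE 2. Differences between populations ranged from 659 (without Adult 3) to 1200 in Juvenile, 669 without Adult 2, from 14 (without Aged 1) to 177 (without Adult 1) in Aged and from 58 (without EAE 1) to 232 (without Adult 1) in EAE. The share differed from Adult by 38.3 to 41.5 points in Juvenile, -4.61 to -3.61 in Aged and -7.58 to -7.51 in EAE, and after thinning by 21.7, -0.666 and -3.02 points.

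Reversed values were Slc2a1 at 0.106 against every EC without Slc38a5, and in the differences between populations Cldn11 in Juvenile at -0.416 (cells of 2000 to 5000 UMIs), -0.281 (at least 2 arterial UMIs) and -0.382 (without cells rich in other RNA), Slc16a1 in Juvenile at 0.139 (every EC without Slc38a5), Aplp1 in Aged at -0.137 (at least 2 arterial UMIs) and -0.571 (without cells rich in other RNA), Trf in EAE at -0.00146 (the same) and Cd52 in EAE at -0.12 (cells of 2000 to 5000 UMIs).

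The replicate numbers of the labels gave no sign of pairing samples. Deviations of same-numbered libraries from their group means correlated at -0.0358 to 0.0415 over 8334 genes. Aged and EAE have 2 libraries each, whose deviations mirror each other, and counting noise enters every gene. A shared day or litter could therefore have been missed. With a replicate block over all 11 libraries the counts were 2756 for Juvenile, 292 for Aged and 788 for EAE. The EAE cells held 400285 UMIs in all, so genes under about 7.50 CPM there, 3 UMIs over the group, could not be told from absent.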
